A study of Mus musculus with 4 samples.

Results

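The report covers 10 genes of the elastic fibre, namely elastin (Eln) and 9 genes of its scaffold, assembly and crosslinking, out of 27195 genes named on the arrays. They were chosen by function, with earlier results of these data known. Every array probe that the files assign to them was kept, which gave 20 of 56605 probes. The samples were lung RNA of C57BL/6J mice, each labelled with 1 dye and hybridised to an Agilent array of 60-base oligonucleotides, 4 arrays in all. The labels' ORX was taken to mean orchiectomy, since testosterone deficiency stands in the title of the series, and PPE to mean porcine pancreatic elastase, since elastase does. The groups were ORX with inhaled PPE (ORX/PPE), ORX with inhaled PBS (ORX/PBS), sham surgery with inhaled PPE (sham/PPE) and sham surgery with inhaled PBS (sham/PBS), each described as 3 weeks after the agent. Each group was 1 array of RNA pooled from 5 mice, so the spread between mice was not measured and precision is limited by the number of arrays. Ages are not given in the labels.

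Elastic fibres give lung its recoil. Tropoelastin, the soluble product of Eln, is secreted, gathers on a scaffold of fibrillin microfibrils with the help of fibulins and latent TGF-beta binding proteins, and is crosslinked by copper-dependent lysyl oxidases into an insoluble and very long-lived core. Most elastin of the lung is laid down while alveoli form, chiefly by fibroblasts and smooth muscle cells, and its loss is a feature of emphysema, which inhaled elastase is used to model. The question put to the data was whether the assembly and crosslinking genes follow Eln across the 4 arrays.

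The probes that carry the values decide what was measured, so the oligonucleotides of 5 genes are shown first. They are those of the highest PPE differences (Eln and Ltbp2), a crosslinking enzyme (Loxl1), and genes whose PPE differences were small or of opposite sign (Emilin1 and Ltbp4). Each is read 5′ to 3′ in the sense of the transcript, in lower case with no part marked, and is placed by the mm9 coordinates in the files, for which no gene annotation was used here. Of the Eln and Ltbp2 probes the first 30 of 60 bases are given. Both Eln probes lie on the minus strand of chromosome 5 and do not overlap, at chr5:135178554-135178613 for the brighter one and chr5:135179129-135179188 for the other. The Ltbp2 probe lies at chr12:86124167-86124226, the Loxl1 probe at chr9:58138570-58138629 and the second Ltbp4 probe at chr7:28091095-28091154, all on the minus strand. The Emilin1 probe is on the plus strand at chr5:31222545-31223001, a span of 457 bases for 60 bases of probe.
Eln, probe 1: ggggagctatttcttcaggagaaaattcat
Eln, probe 2: ataccggaagccttgacgatggatttggtg
Ltbp2, probe 1: aaatgcacttccatacaagctagctggggg
Loxl1, probe 1: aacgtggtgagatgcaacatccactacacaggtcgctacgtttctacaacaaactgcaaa
Ltbp4, probe 2: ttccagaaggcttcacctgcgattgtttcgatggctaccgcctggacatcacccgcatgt
Emilin1, probe 1: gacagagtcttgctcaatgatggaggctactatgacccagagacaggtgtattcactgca

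The 250 bases before the start site are shown for Ltbp2 and Fbn1, which had the highest PPE differences in both surgeries among the 6 of the 10 genes with a promoter entry. The entries are from RefSeq, on GRCm38.p6, and the coordinates of this paragraph are of that build. Capitals mark the GC box, searched as GGGCGG and as its reverse complement CCGCCC, which occurs in 32.7% of the 250-base windows of all 32851 RefSeq promoters. Ltbp2 (chr12:84876492-84876741, minus strand) holds 2 such matches and Fbn1 (chr2:125506439-125506688, minus strand) holds 1. Of the other genes with an entry, Emilin1 has 0, Fbln5 0 to 2, Efemp2 2 to 5 and Ltbp4 3 to 7 over their start sites. The TATA box, searched as TATAAA on both strands, occurs in 12.4% of all windows and in 0 of the windows of the 6 genes. A match is a description of the letters and was not tied to the array values.
Ltbp2, promoter: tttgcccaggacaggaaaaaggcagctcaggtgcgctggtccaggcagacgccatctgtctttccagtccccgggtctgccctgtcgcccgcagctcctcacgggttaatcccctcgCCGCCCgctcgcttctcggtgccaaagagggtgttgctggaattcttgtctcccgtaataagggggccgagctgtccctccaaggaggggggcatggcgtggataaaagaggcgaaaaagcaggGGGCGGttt
Fbn1, promoter: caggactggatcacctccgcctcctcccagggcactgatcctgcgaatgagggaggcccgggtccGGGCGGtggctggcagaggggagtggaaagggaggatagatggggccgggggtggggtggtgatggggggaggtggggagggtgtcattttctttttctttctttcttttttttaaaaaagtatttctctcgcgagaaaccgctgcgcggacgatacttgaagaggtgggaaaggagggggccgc

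Values are log2 of the processed spot signal after subtraction of the 75th percentile of the array, so 0 is the 75th percentile and 1 unit is a 2-fold step. The percentile was a signal of 860.9 on ORX/PPE, 999.2 on ORX/PBS, 829.8 on sham/PPE and 852.9 on sham/PBS. A gene is given by its brightest probe unless another probe is named, levels of different probes are not set against each other, and a difference counts as past the threshold at 2-fold. Each probe of the 10 genes was spotted once. Spots repeated 10 times on an array varied with an SD of up to 0.0363 (median over such probes), or 0.0514 for a difference between arrays, an error of spots and not of mice. Among 8424 genes with 2 probes, the probes' PPE differences lay a median of 0.171 apart in ORX lungs and 0.158 in sham lungs, with 90th percentiles of 0.470 in ORX and 0.527 in sham lungs.

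All 10 lung epithelial markers, among them the surfactant gene Sftpc, were well above background on all 4 arrays, and the 10 genes were so too by their brightest probes. The sham/PPE array stood apart in genes of other organs. Summed over 11 cardiac muscle markers, the signal was 31.9 times the 75th percentile on ORX/PPE, 64.5 times on ORX/PBS, 165.5 times on sham/PPE and 79.2 times on sham/PBS. Over 4 spermatid markers it was 0.123 times on ORX/PPE, 0.12 times on ORX/PBS, 2.64 times on sham/PPE and 0.124 times on sham/PBS. Over 5 brown fat markers it was 3.17 times on ORX/PPE, 4.88 times on ORX/PBS, 14.4 times on sham/PPE and 5.57 times on sham/PBS. The PPE difference in ORX lungs and the ORX difference under PBS do not use the sham/PPE array. All arrays were on 1 slide with 1 array per group, so position on the slide and group cannot be told apart. In whole lung RNA, fewer cells of a type and less RNA per cell cannot be told apart either.

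Eln was higher under PPE in both surgeries, and it was the only one of the 10 genes to pass 2-fold in either. Its signal was 4712 on ORX/PPE, 1309 on ORX/PBS, 4395 on sham/PPE and 1915 on sham/PBS, which after scaling is 2.45 on ORX/PPE, 0.39 on ORX/PBS, 2.41 on sham/PPE and 1.17 on sham/PBS. Both PPE arrays stood above both PBS arrays, the PPE arrays were nearly level, and ORX/PBS was the lowest of the 4. The difference was 2.06 in ORX lungs, or 4.18-fold, and 1.24 in sham lungs, or 2.36-fold. By this difference Eln ranked 4 of 20792 genes in ORX lungs and 134 of 20833 in sham lungs, and 12 of 20277 by the smaller of both. The other Eln probe read 0.94 on ORX/PPE, -0.62 on ORX/PBS, 1.17 on sham/PPE and 0.10 on sham/PBS, with differences of 1.56 in ORX and 1.07 in sham lungs. It gave the same split of PPE and PBS arrays and again the lowest value on ORX/PBS, with its highest on sham/PPE.

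Of the 10 genes, 1 was thus at least 2-fold higher under PPE in ORX lungs, against 0.707% of all genes, and 1 in sham lungs, against 1.26%. Eln was 2-fold higher in both, as was 0.104% of 20277 genes. None of the 10 was 2-fold lower, against 0.375% of all genes in ORX lungs and 0.451% in sham lungs. At 1.5-fold, 3 were higher in ORX lungs and 4 in sham lungs, where 3.45% of all genes were in ORX lungs and 5.06% in sham lungs. Eln, Ltbp2 and Lox made up the 3 that were 1.5-fold higher in both surgeries, as were 0.626% of 20277 genes. That count holds for the brightest probes. The second Lox probe was 1.45-fold higher in ORX and 1.36-fold in sham lungs, and the mean of the Ltbp2 probes gave 0.17 in sham lungs, all under 1.5-fold. That mean includes an Ltbp2 probe that was not well above background on the sham arrays. Above 0 in both were 7, as were 24.7% of all genes, and 1 of the 7, Efemp2, turned below 0 in sham lungs under quantile normalization. The median over the 10 genes was 0.16 in ORX lungs and 0.34 in sham lungs, against medians over all genes of -0.0034 in ORX lungs and 0.018 in sham lungs. Since the 10 genes were chosen with earlier results of these data known, the shares over all genes are a description and not a test.

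**Figure D1:**
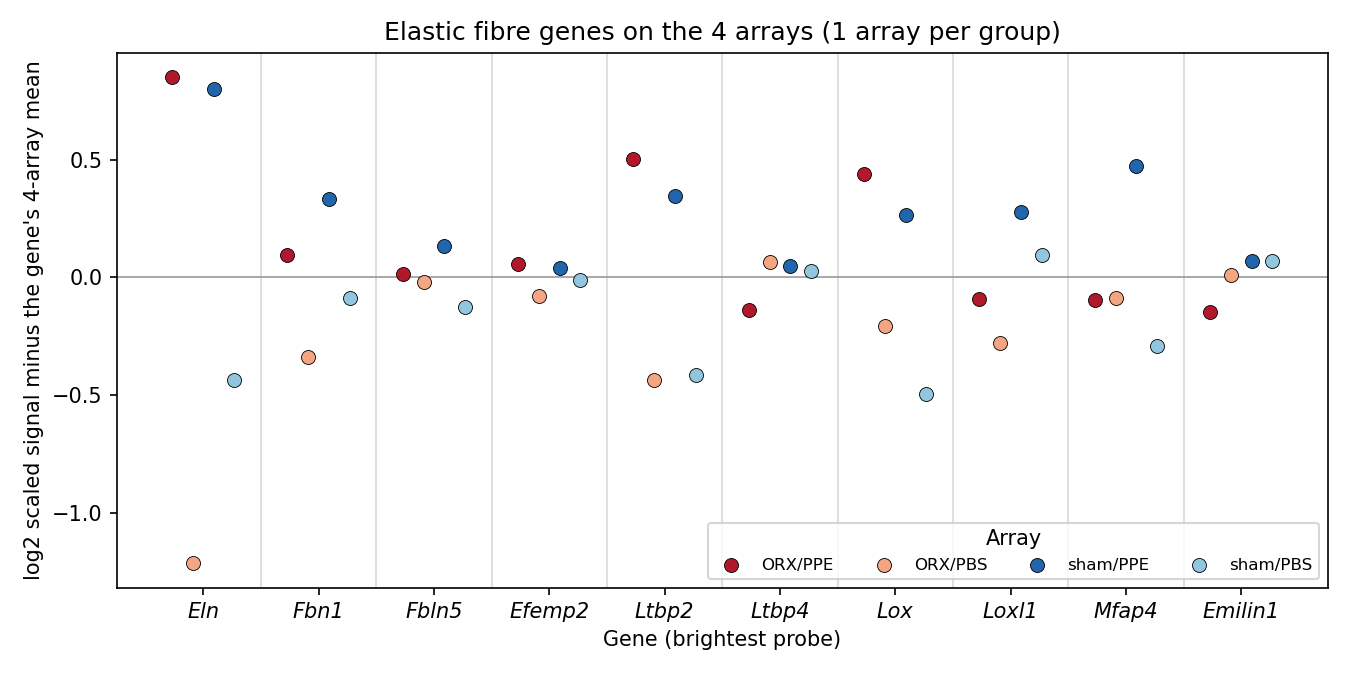
Log2 scaled signal of the brightest probe of each gene on each array, minus the gene's mean over the 4 arrays, with 1 point per array. Eln spreads from -1.21 on ORX/PBS to 0.85 on ORX/PPE, Ltbp2 and Lox show both PPE arrays above both PBS arrays over a smaller range, and Ltbp4, Efemp2 and Emilin1 lie close to 0.

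The microfibril scaffold gene Fbn1, which encodes fibrillin-1, was higher under PPE by less than Eln. It read 1.42 on ORX/PPE, 0.98 on ORX/PBS, 1.66 on sham/PPE and 1.24 on sham/PBS. Both PPE arrays stood above both PBS arrays, by 0.43 in ORX and 0.42 in sham lungs, and within each agent the ORX array was the lower one. A second probe gave 0.24 in ORX and 0.48 in sham lungs. The dimmest of its 3 probes, assigned by the files to another transcript record some distance away on the chromosome, gave -0.14 in ORX and -0.31 in sham lungs, so the probes of Fbn1 disagree in sign. Fbn1 ranked 300 of 20277 by the smaller of its PPE differences.

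The fibulins, which bind tropoelastin and tether it to the microfibrils, showed small differences. Fbln5, fibulin-5, read 3.45 on ORX/PPE, 3.42 on ORX/PBS, 3.57 on sham/PPE and 3.31 on sham/PBS. Both PPE arrays stood above both PBS arrays, but by 0.04 in ORX lungs, which is within the error of a spot, and 0.26 in sham lungs. A second probe, which overlaps the first, gave 0.15 in ORX and 0.27 in sham lungs, and the dimmest was below background on all 4 arrays. Efemp2, fibulin-4, which brings lysyl oxidase to tropoelastin, read 2.62 on ORX/PPE, 2.49 on ORX/PBS, 2.61 on sham/PPE and 2.55 on sham/PBS. Its differences were 0.14 in ORX and 0.05 in sham lungs, the second of which was within the error of a spot and turned to -0.0047 under quantile normalization, and a dim second probe, at -0.13 in ORX and 0.02 in sham lungs, had the other sign in ORX lungs.

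The latent TGF-beta binding proteins parted. Ltbp2, which binds microfibrils and fibulin-5, read 4.08 on ORX/PPE, 3.14 on ORX/PBS, 3.92 on sham/PPE and 3.16 on sham/PBS. Both PPE arrays stood above both PBS arrays, and within each agent the surgeries lay within 0.16 of each other. The PPE difference was 0.94 in ORX lungs, or 1.92-fold, and 0.76 in sham lungs, or 1.70-fold, and Ltbp2 ranked 56 of 20277 by the smaller of the 2. Its second probe was well above background only on the ORX arrays, with a difference of 0.29, so the value of Ltbp2 rests on 1 probe. The mean of both probes gave 0.62 in ORX and 0.17 in sham lungs. Ltbp4, which guides deposition of fibulin-5 and elastin, read 4.87 on ORX/PPE, 5.07 on ORX/PBS, 5.05 on sham/PPE and 5.03 on sham/PBS. Its PPE arrays did not stand above its PBS arrays. The differences were -0.20 in ORX lungs and 0.02 in sham lungs, the second of which turned to -0.08 under quantile normalization. The second probe gave -0.27 in ORX and 0.11 in sham lungs, and the dimmest of the 3 gave -0.17 in ORX and -0.18 in sham lungs.

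Of the crosslinking enzymes, Lox was higher under PPE and Loxl1 much less so. Lox, lysyl oxidase, read 2.54 on ORX/PPE, 1.90 on ORX/PBS, 2.37 on sham/PPE and 1.61 on sham/PBS. Both PPE arrays stood above both PBS arrays, by 0.64 or 1.56-fold in ORX and 0.76 or 1.69-fold in sham lungs, and a second probe gave 0.54 in ORX and 0.44 in sham lungs. Unlike Eln, Lox had its lowest value on sham/PBS. Loxl1, the lysyl oxidase relative needed for renewal of elastic fibres in adult mice, read 1.73 on ORX/PPE, 1.55 on ORX/PBS, 2.10 on sham/PPE and 1.92 on sham/PBS. The PPE difference was 0.18 in each surgery, while both ORX arrays lay below both sham arrays. Loxl1, Mfap4 and Emilin1 had 1 probe each, so no other probe checks them.

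The proteins at the fibre surface did not follow Eln in both surgeries. Mfap4, a microfibril-associated protein that binds tropoelastin, read 1.42 on ORX/PPE, 1.43 on ORX/PBS, 1.99 on sham/PPE and 1.23 on sham/PBS. The sham/PPE array was high and the other 3 lay close together, with a PPE difference of -0.01 in ORX lungs and 0.76 in sham lungs. The sham/PPE array is the one with the highest sums of cardiac, brown fat and spermatid markers, and their part in the value of Mfap4 was not tested. Emilin1, an elastin-binding glycoprotein of the elastin and microfibril interface, was dim, with signals of 113 on ORX/PPE, 146 on ORX/PBS, 126 on sham/PPE and 130 on sham/PBS. Its PPE differences were -0.16 in ORX and -0.0023 in sham lungs, and under normexp background correction -0.06 in ORX and 0.10 in sham lungs, so no direction was drawn for sham lungs.

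**Figure D2:**
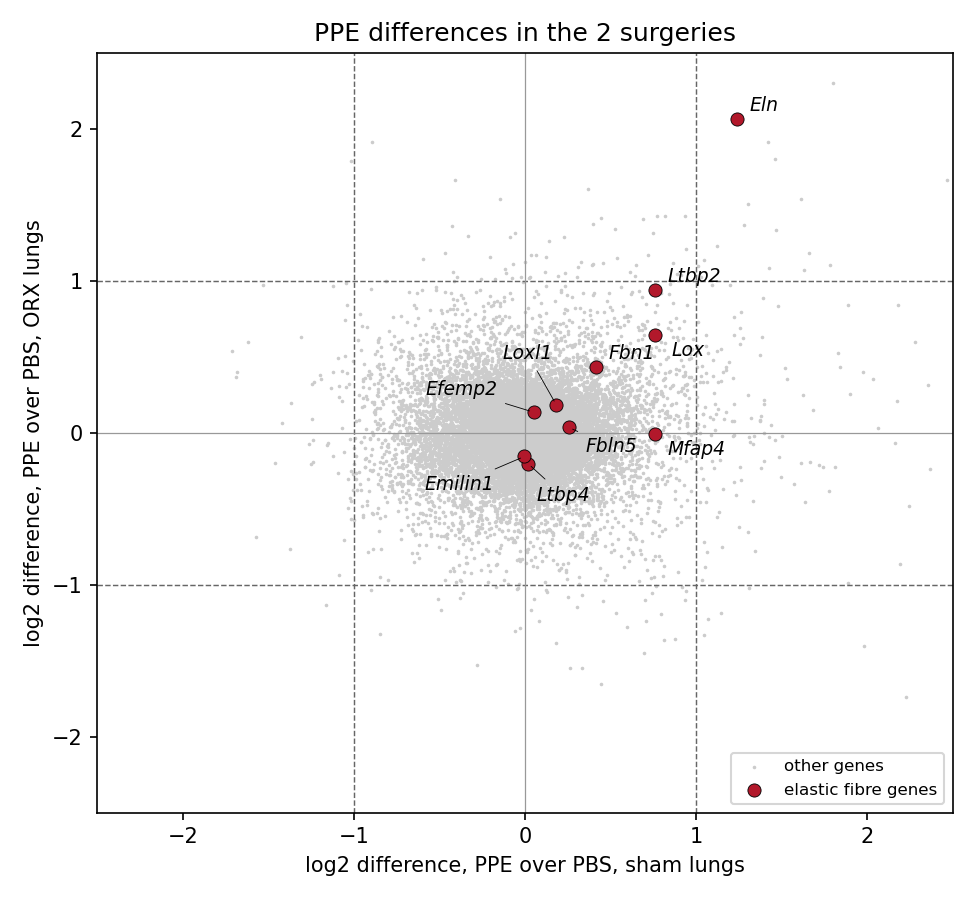
PPE over PBS log2 difference in ORX lungs against that in sham lungs, 1 point per gene, for 19315 genes above background on all 4 arrays, with the 10 elastic fibre genes in red and dashed lines at 2-fold. Another 5 genes lie outside the axes. Eln is past 2-fold on both axes, Ltbp2, Lox and Fbn1 lie on the same side below 2-fold, Mfap4 lies to the right at -0.01 on the vertical axis, and the direction of Efemp2, Ltbp4 and Emilin1 in sham lungs turned under another processing.

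Likeness to Eln across the 4 arrays differed widely among the other 9 genes. With 75th-percentile scaling, both PPE arrays lay above both PBS arrays for 6 of the 10 (Eln, Fbn1, Fbln5, Efemp2, Ltbp2 and Lox), as they did for 14.6% of 19320 genes above background on all arrays. This order was within the error of a spot for Fbln5, by 0.04 in ORX lungs, and for Efemp2, by 0.05 in sham lungs. The value of Efemp2 turned to -0.0047 under quantile normalization. To measure likeness, the 4 values of each gene were centred on their mean and the Euclidean distance to those of Eln was taken among 19319 genes. Ltbp2 ranked 39 with a distance of 0.97, Lox 177 with 1.21 and Fbn1 279 with 1.30. Mfap4 ranked 1145 with 1.52, Loxl1 1219 with 1.52, Fbln5 3131 with 1.63 and Efemp2 3256 with 1.64. Emilin1 ranked 13214 with 1.81 and Ltbp4 14415 with 1.84. A gene with small differences between arrays can rank above many others, so the ranks from Mfap4 on do not show that these genes followed Eln. Mfap4, for one, had a PPE difference of -0.01 in ORX lungs. The distance describes these 4 arrays and weighs the size of a difference as well as its pattern.

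The 5 genes nearest to Eln by this distance were outside the elastic fibre. The distance was taken from the brightest Eln probe only, so their order was not checked on the other Eln probe. Slc26a4, an anion exchanger of epithelia, was nearest at 0.18, with PPE differences of 1.92 in ORX and 1.42 in sham lungs and the lowest of its 4 values on ORX/PBS, as for Eln. Cxcr1, a chemokine receptor of neutrophils, followed at 0.46, Gm15767 at 0.53, the retinol-binding protein receptor gene Stra6l at 0.53 and Gdf15, a stress-responsive cytokine, at 0.56. Normexp brought 3 dim probes down. Cxcr1 was then at 0.82 in ORX and 0.87 in sham lungs, Gm15767 at 0.52 in ORX and 0.35 in sham lungs, and Stra6l at 1.04 in ORX and 0.78 in sham lungs. By normexp Gdf15 was at 1.28 in ORX and 0.68 in sham lungs, and Slc26a4 at 1.74 in ORX and 1.29 in sham lungs.

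In the comparisons of ORX with sham, 0 of the 10 genes passed 2-fold in either direction, where 1.74% of all genes under PPE and 1.87% under PBS did. Eln differed by 0.05 under PPE, with -0.22 on its other probe, and by -0.78 under PBS, or 0.58-fold, with -0.71 on its other probe. Under PBS it was the 1 gene of the 10 at least 1.5-fold lower, against 5.71% of all genes, and under PPE 0 were, against 4.63%. Mfap4 was at -0.57 under PPE and 0.20 under PBS, and Loxl1 at -0.37 under both. Fbn1 was at -0.24 under PPE and -0.25 under PBS, with its second probe at -0.20 under PPE and 0.05 under PBS. Lox was at 0.17 under PPE and 0.29 under PBS. The other 5 genes lay between -0.22 and 0.16 under PPE and between -0.07 and 0.10 under PBS. Both ORX arrays lay below both sham arrays for Loxl1 and Emilin1, 2 of the 10, and for 21.5% of all genes above background on the 4 arrays. For the dim Emilin1 this order was narrow, with -2.78 on ORX/PBS and -2.72 on sham/PPE. Its ORX difference under PBS was -0.06, or -0.0029 under quantile normalization.

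The PPE difference of Eln was larger in ORX lungs than in sham lungs by 0.82, and by 0.49 on the other probe. On the brightest probe the ORX/PPE and sham/PPE values differ by 0.05, so nearly all of its 0.82 is the lower value on ORX/PBS. On the other probe ORX was lower under both agents, at -0.22 under PPE and -0.71 under PBS. Mfap4 had the opposite gap, with a PPE difference smaller in ORX lungs by 0.77. Of the 10 genes 1 was thus at least 1.5-fold larger and 1 at least 1.5-fold smaller in its PPE difference in ORX lungs than in sham lungs, against 7.04% of all genes larger and 6.51% smaller. The other 8 had gaps between -0.22 and 0.18. With 1 array per group this gap has no test.

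**Figure D3:**
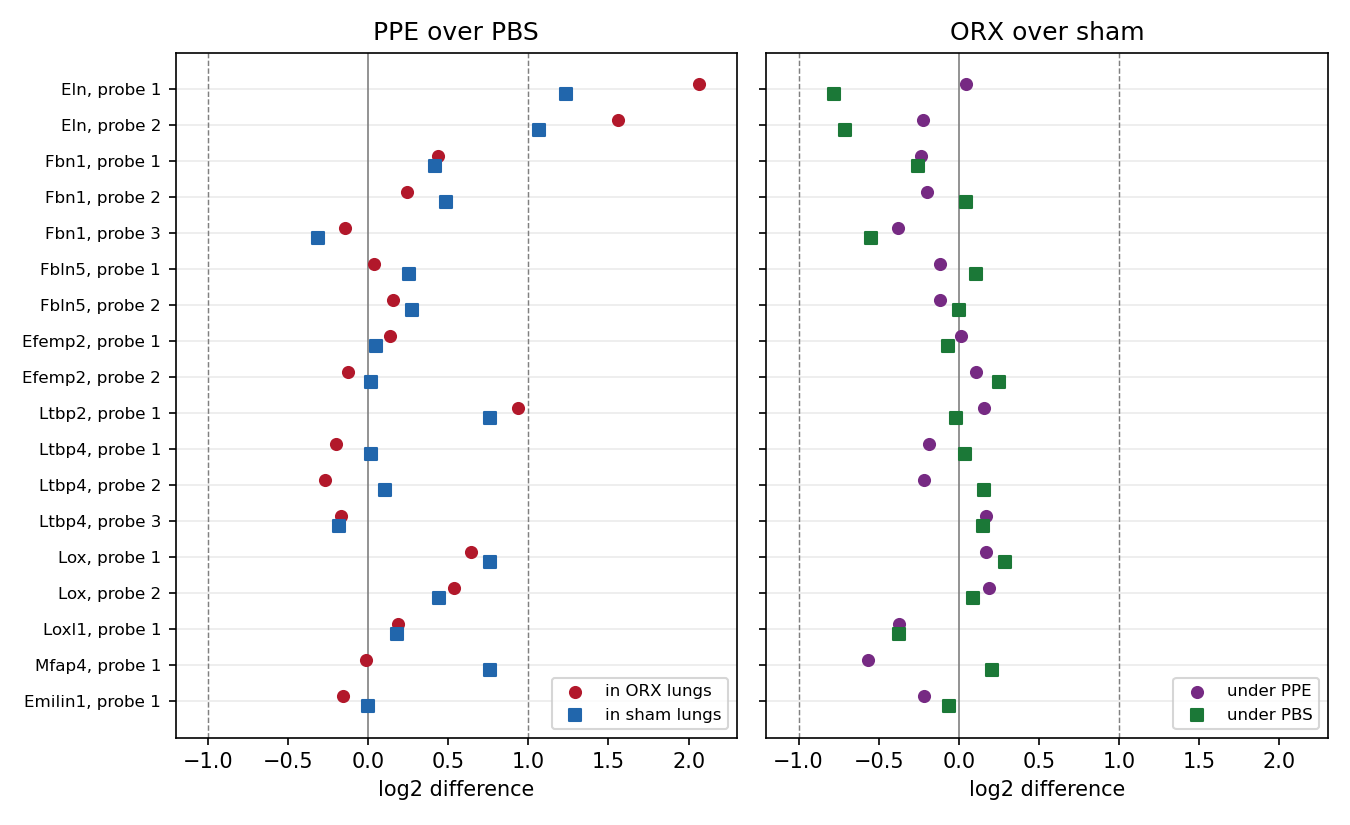
Log2 differences of all probes of the 10 genes that were above background on all 4 arrays, PPE over PBS on the left and ORX over sham on the right, numbered by brightness, with dashed lines at 2-fold. The 2 probes of Eln and of Lox share the sign for PPE, the dimmest Fbn1 probe lies below 0 in both surgeries where the first lies above 0, and no probe reaches 2-fold for ORX.

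An additive model of surgery and agent, fitted with limma to 20656 genes over the 4 arrays, leaves 1 residual degree of freedom and assumes that the factors do not interact. Its PPE term was 1.65 with an SE of 0.25 for Eln, 0.85 with 0.13 for Ltbp2 and 0.70 with 0.13 for Lox. Benjamini-Hochberg adjusted p over all genes in the limma fit was 0.751 for each of these 3 genes. No gene of the array passed an adjusted p of 0.05 in limma for PPE or for ORX, while 1161 genes (5.62%) for PPE and 1638 (7.93%) for ORX had an unadjusted p under 0.05. With an intensity trend in limma's prior variance, 11 genes passed for PPE, or 0.0533%, and 13 for ORX, or 0.0629%. In that fit the limma adjusted p for PPE was 0.0143 for Eln, 0.0522 for Ltbp2 and 0.103 for Lox, so the call for Eln rests on the variance model. For ORX the largest terms in size were -0.37 for Loxl1 and -0.36 for Eln, with a limma adjusted p of 0.625 for Loxl1 and 0.797 for Eln.

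The other genes of the fibre and its surroundings were described by lists. For PPE, 0.707% of all genes were 2-fold higher and 0.375% lower in ORX lungs, and 1.26% higher and 0.451% lower in sham lungs. For ORX, 1.74% of all genes passed 2-fold under PPE and 1.87% under PBS. With shares this low, a count of 0 in any of the short lists below does not set that list apart. Of 20 other microfibril and fibre genes 0 passed 2-fold in any of the 4 comparisons, and their median PPE difference was 0.07 in ORX and -0.02 in sham lungs. Mfap5, a small microfibril glycoprotein, read highest of them in sham lungs at 0.98, with 0.62 in ORX lungs. Its signal was 10151 on ORX/PPE, 7681 on ORX/PBS, 11391 on sham/PPE and 5923 on sham/PBS. The dim Emilin3 was at 0.85 in ORX and 0.87 in sham lungs, or with normexp at 0.39 in ORX and 0.44 in sham lungs. Lowest in both surgeries was Tnxb, the matrix glycoprotein tenascin-X, at -0.49 in ORX and -0.37 in sham lungs. Next in ORX lungs was Vtn, vitronectin, at -0.42, with -0.23 in sham lungs. Next in sham lungs was the dim Vcan, the proteoglycan versican, at -0.36, with -0.19 in ORX lungs, or with normexp at -0.04 in ORX and -0.14 in sham lungs. For ORX, Tnxb was at 0.47 under PPE and 0.59 under PBS.

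Of 10 other crosslinking genes 9 were measured, Tll2 being below background, and 0 passed 2-fold. Their median was -0.16 in ORX and 0.15 in sham lungs. Bmp1, the proteinase that activates Lox, was at 0.19 in ORX and 0.18 in sham lungs, and the copper chaperone Atox1 at -0.06 in ORX and 0.32 in sham lungs. Lowest in ORX lungs were Loxl4, at -0.62 in ORX and -0.02 in sham lungs, and Loxl3, at -0.61 in ORX and 0.17 in sham lungs. Both are dim, and normexp brought Loxl4 to -0.26 in ORX and 0.11 in sham lungs and Loxl3 to -0.14 in ORX and 0.22 in sham lungs. Lowest in sham lungs were Tll1, a proteinase related to Bmp1, at -0.27 in ORX and -0.41 in sham lungs, and the copper transporter gene Atp7a, at -0.16 in ORX and -0.23 in sham lungs. Tll1 is dim, and normexp brought it to -0.16 in ORX and -0.31 in sham lungs.

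Of 14 genes of TGF-beta signalling, which raises elastin and lysyl oxidase transcripts in many fibroblast cultures, 0 passed 2-fold, with medians of 0.11 in ORX and 0.15 in sham lungs. Above 0 were 10 in ORX and 13 in sham lungs, and below 0 were 4 in ORX and 1 in sham lungs. The values ran from -0.15 to 0.51 in ORX lungs and from -0.03 to 0.46 in sham lungs. Itgb8, a subunit of an integrin that activates TGF-beta, was at 0.51 in ORX and 0.14 in sham lungs, or with normexp, since it is dim, at 0.32 in ORX and 0.23 in sham lungs. Smad7, an inhibitor of the pathway, was at -0.15 in ORX and 0.12 in sham lungs, and the co-receptor gene Tgfbr3 at -0.13 in ORX and 0.05 in sham lungs. For ORX the largest value was that of the target gene Ccn2, at 0.71 under PPE and 0.60 under PBS. Of 10 proteases that cleave elastin, 8 were measured in each surgery. Of these, 1 was at least 2-fold higher in ORX lungs, against 0.707% of all genes, and 2 in sham lungs, against 1.26%. None was 2-fold lower, against 0.375% of all genes in ORX lungs and 0.451% in sham lungs. The 8 had medians of 0.43 in ORX and 0.79 in sham lungs. Prtn3 and Ctsg were below background on at least 1 array of each comparison. With their bounds included the medians were 0.18 in ORX and 0.78 in sham lungs. Mmp12, the macrophage elastase, was at 1.43 in ORX and 0.82 in sham lungs. Mmp9, gelatinase B, was at -0.23 in ORX and 1.26 in sham lungs, and the cathepsin gene Ctss at 0.57 in ORX lungs and just over 2-fold higher in sham lungs. Normexp brought Mmp12 to 1.15 in ORX and 0.62 in sham lungs. It brought Mmp9 to -0.11 in ORX and 0.99 in sham lungs and Ctss to 0.57 in ORX and 0.98 in sham lungs, both just under 2-fold in sham lungs.

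**Figure D4:**
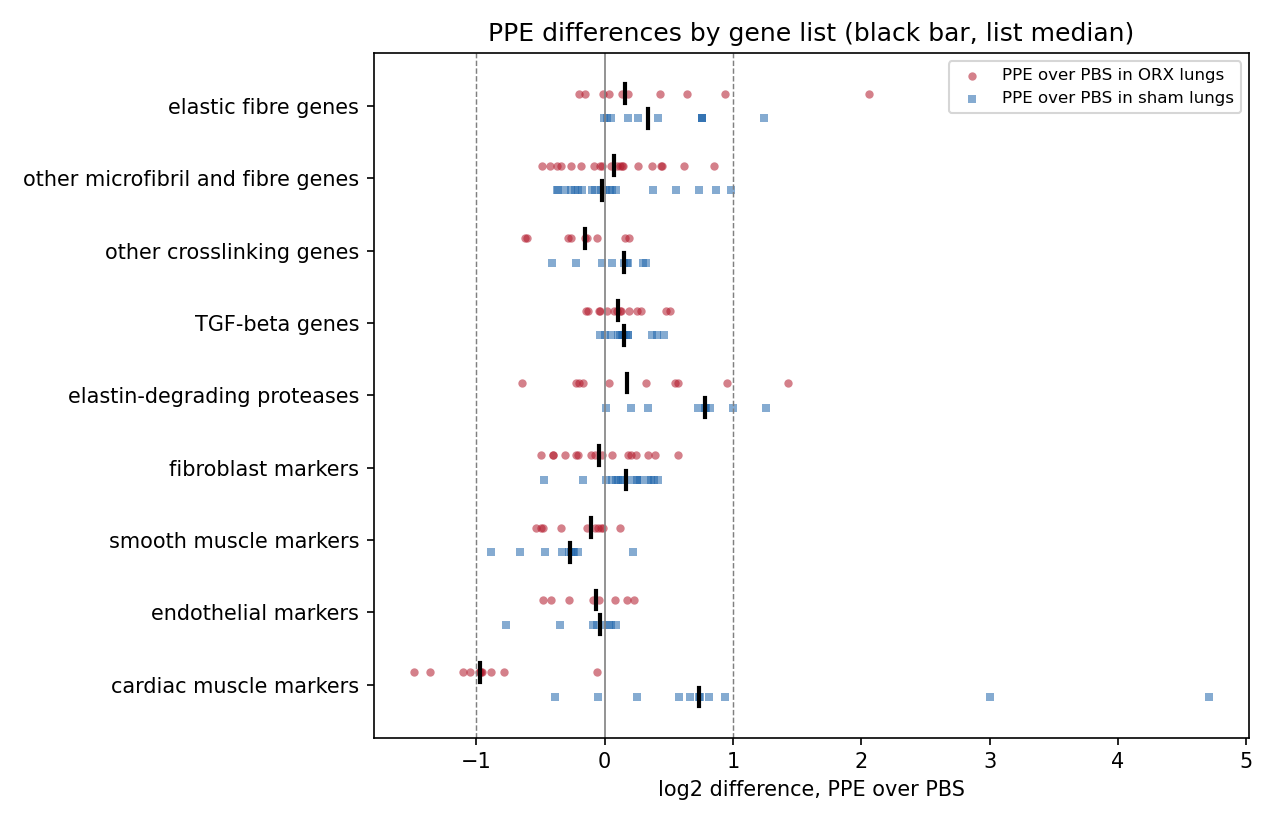
PPE over PBS log2 differences in ORX and in sham lungs for the 10 elastic fibre genes and 8 other lists, 1 point per gene, genes with 1 array below background being drawn at their bound, with black bars at the list medians and dashed lines at 2-fold. Eln, at 2.06 in ORX and 1.24 in sham lungs, lies above the medians of its list at 0.16 in ORX and 0.34 in sham lungs, and the cardiac muscle markers have medians of -0.97 in ORX and 0.74 in sham lungs.

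Markers of the cells that make elastin were set beside these values. The 16 fibroblast markers were all above background on all arrays, with a summed signal of 111.8 times the 75th percentile on ORX/PPE, 96.8 on ORX/PBS, 120.9 on sham/PPE and 103.2 on sham/PBS. Their median PPE difference was -0.05 in ORX and 0.17 in sham lungs, and 0 passed 2-fold. In ORX lungs 7 were above 0 and 9 below, from -0.50 for Dpt to 0.57 for Col3a1. In sham lungs 14 were above 0 and 2 below, from -0.47 for Wnt2 to 0.42 for Aspn. The 10 smooth muscle markers summed to 80.0 on ORX/PPE, 85.0 on ORX/PBS, 74.3 on sham/PPE and 85.8 on sham/PBS, with median PPE differences of -0.11 in ORX and -0.27 in sham lungs. Cnn1, calponin, was lowest of them at -0.54 in ORX and -0.89 in sham lungs. The 6 mesothelial markers had medians of -0.33 in ORX and -0.02 in sham lungs and sums between 35.4 and 41.8. The 8 endothelial markers had medians of -0.07 in ORX and -0.03 in sham lungs and sums between 67.8 and 80.4. Of 8 cartilage markers, Acan and Matn1 were below background on every array and the sum lay between 1.25 and 1.85. With bounds included, the other 6 had a median of 0.15 in ORX lungs, with 4 above 0 and 2 below. Their median was -0.02 in sham lungs, with 3 above 0 and 3 below. The matrix gene Comp had a PPE difference of 0.21 in ORX and 2.17 in sham lungs, and by normexp 0.25 in ORX and 1.09 in sham lungs. Its signal was 23.3 on ORX/PPE, 23.4 on ORX/PBS, 93.8 on sham/PPE and 21.4 on sham/PBS. The part of fibroblasts and smooth muscle in the Eln values was not tested.

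Of the 11 cardiac muscle markers, 11 were below 0 for PPE in ORX lungs, with a median of -0.97. In sham lungs 9 were above 0 and 2, Actc1 at -0.39 and Ryr2 at -0.06, below it, with a median of 0.74. Their part in the values of Eln was not tested. For ORX under PBS, where Eln was at -0.78, the median of fibroblast markers was -0.06, that of smooth muscle markers -0.04, that of endothelial markers -0.04 and that of cardiac markers -0.25. In the same comparison the 16 fibroblast markers ran from -0.98 for the Wnt gene Wnt2 to 0.81 for the collagen gene Col14a1, with 6 above 0 and 10 below. The 8 endothelial markers ran from -1.50 for the arterial connexin gene Gja5 to 0.27 for the carbonic anhydrase gene Car4, with 4 above 0 and 4 below. For PPE, Gja5 was at 0.08 in ORX and -0.77 in sham lungs, the second opposite in sign to Eln.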

How the data were processed

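Lung RNA of 4 groups was measured on 1 array each. Per the file headers, Agilent's Feature Extraction, version 10.7.1.1, read the arrays, which were of design 074809. The submitters' processing notes give version 9.5.1.1, and which is right was not settled. The processed signal is a linear intensity, background-subtracted and detrended within the array and not normalized between arrays, as deposited per the file headers. The other columns used are marks of 0 or 1, per the file headers. The deposited value table holds linear intensity values with a median of 71.5 in every column, and it differed from a quantile normalization of the processed signal by a median of at most 0.0003 on the log2 scale, so its scale and direction are known.

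Control and outlier spots were left out (31 to 54 of 59305 spots an array), 0 spots were saturated, log2 was taken and the 75th percentile of each array subtracted. Probes were named through the RefSeq table of GRCm38.p6 by accession (32994), symbol (10224) or synonym (520), 2574 kept the file's name and 10293 had none. A difference was measured where the probe was well above background on both arrays. Where it was so on 1 of them, the dim side was set to the higher of its own value and the lowest signal well above background, and this bound entered the counts and shares over all genes and the plot of lists. Single arrays allow no test between 2 groups, so the threshold was 2-fold. The additive model was fitted with limma 3.58.1 in R 4.3.3 to genes above background on at least 2 arrays and was tested on simulated data. The remaining steps used matplotlib 3.10.9, pandas 2.3.3 and numpy 2.4.6 under Python 3.11.15.

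Alternatives were normexp background correction (offset 50), quantile normalization, median centring, the deposited table, averaging a gene's probes, the second brightest probe, only probes above background on all 4 arrays, no filter, a 1.5-fold threshold and, for limma, an intensity trend. All 10 genes are named with every probe. Of the other lists of the pathway, genes past 2-fold and otherwise up to 2 per direction are named, of marker lists up to 3, and the 5 genes nearest to Eln. A gene that this rule would name is not reported here. The genes and lists were chosen with earlier results of these data known.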

Additional observations from a re-analysis of the deposited data

Results flagged for a closer look

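For 3 genes a difference had one sign in 1 background and the opposite sign in the other, with both values larger than the error of a spot. With 1 array per group none of these contrasts was tested. The ORX difference of Mfap4 was -0.57 under PPE and 0.20 under PBS, from its 1 probe. That of Fbln5 was -0.12 under PPE and 0.10 under PBS, and its second probe gave -0.12 under PPE and 0.00034 under PBS. The second probe of Ltbp4 had a PPE difference of -0.27 in ORX and 0.11 in sham lungs, and an ORX difference of -0.22 under PPE and 0.16 under PBS, where the brightest probe gave -0.18 under PPE and 0.04 under PBS.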

How the results depend on the processing

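No alternative reversed a difference past 2-fold, and among the 10 genes only the PPE differences of Eln were past it. The background filters and the 1.5-fold threshold could not change a difference of Eln, and the deposited table is nearly the quantile normalization. For Eln, the alternatives gave a PPE difference of 1.56 to 2.06 in ORX and 1.07 to 1.30 in sham lungs, and an ORX difference of -0.79 to -0.71 under PBS. Its ORX difference under PPE was -0.088 with the mean of its probes and -0.22 with the second brightest probe. At 1.5-fold and by brightest probes, 3 of the 10 genes were higher under PPE in ORX lungs and 4 in sham lungs. In ORX under PBS 1 was lower, namely Eln at -0.78, whose gap between PPE differences, 0.82, also passed. With an intensity trend limma called 11 genes for PPE, among them Eln at 1.65, and 13 for ORX. Over all settings the limma adjusted p of the Eln PPE term lay between 0.0143 and 0.844. With the mean of probes the PPE difference of Fbln5 in ORX lungs was -0.40, a mean that includes a probe below background on all arrays. With the second brightest probe that of Efemp2 was -0.13, and that of Ltbp2 was 0.29, on a probe above background on 2 of the 4 arrays. None of 9 sign changes in the limma terms of the genes was of a term past the threshold, and the cause was not tested. The PPE term turned to 0.0214 for Emilin1 with normexp, and with the second brightest probe to -0.0544 for Efemp2 and -0.0673 for Ltbp2. The ORX term of Fbln5 turned to 0.0104 with normexp, 0.0184 with median centring and 0.0885 with the mean of probes. That of Efemp2 turned to 0.0754 with the mean of probes and 0.177 with the second brightest probe, and that of Ltbp4 to 0.0182 with the mean of probes. No scaling moved the median of all genes by more than 0.08. Sensitivity is limited by 1 spot per probe, and by signals near background for Emilin1. No paired analysis was possible because each group is 1 array of pooled RNA.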
